A study of Mus musculus with 4 samples.

Results

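Translation initiation and elongation factors are the proteins that bring ribosomes to the start codons of mRNAs and then carry tRNAs and the ribosome along the message. They are treated here as the protein-coding genes whose symbol begins with Eif1 to Eif6, Eef1 or Eef2, a rule on names and biotype that uses no measured value. It gave 68 genes of the 54532 in the deposited table. RNA-seq was done on T lymphocytes isolated from mice and grown in culture, either treated with PTC (n = 2) or kept as Control (n = 2), all labelled 12 h. All 4 libraries were from cells kept in serum-containing medium with IL2, a T cell growth cytokine, and with CD3/28 beads, which mimic antigen and costimulation, so the Control cells were activated cells as well. What PTC stands for is not spelled out in the labels, nor are a dose, mouse strain, sex or age. Whether the libraries derive from different cultures or different mice is not stated either, so p-values measure the spread between these libraries, which may be technical. In bulk RNA, fewer cells of a type and less RNA per cell cannot be told apart.

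Initiation begins when the eIF2 trimer, bound to GTP, delivers the initiator tRNA to the small ribosomal subunit. The exchange factor eIF2B then recharges eIF2 with GTP. Stress-activated eIF2 kinases phosphorylate the alpha subunit of eIF2, which turns eIF2 into an inhibitor of eIF2B, lowers general protein synthesis and favours translation of the transcription factor ATF4. The cap-binding complex eIF4F and the large scaffold eIF3 recruit the mRNA, and eEF1 and eEF2 then drive each round of elongation. T cells raise their protein synthesis strongly on activation.

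With PTC, the transcripts of this machinery stood close to their Control levels. Of the 68 genes 64 had enough counts to test, and 1 of them passed the threshold, an adjusted p under 0.05 (quasi-likelihood test of edgeR, Benjamini-Hochberg correction over all genes tested). That gene was Eif2s2, the beta subunit of eIF2, which fell to 77.1% of its Control level. Over all 13884 genes tested, 1.35% were called in either direction, 0.763% lower and 0.591% higher, so 1 of 64 lies near the background. None of the 4 eIF2 kinases passed. All 5 eIF2B subunits had negative fold changes, as did 50.7% of all genes tested, and none passed the threshold.

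Promoter sequences are shown for the gene that was called and for genes of the eIF2 circuit whose windows hold the ETS word CCGGAAG. Also shown are examples of the E-box CACGTG, the other word more frequent in the factors' windows than in both backgrounds given below. The sequences are from RefSeq on GRCm38.p6. It held windows of 300 bases (250 before to 50 after an annotated start) for 52 of the 68 genes. The first is the stretch of 250 bases before the start of Eif2s2, minus strand of chr2:154892907-154893156, with no capitals because none of the 7 motifs searched occurs in its window. The next ones run from 40 bases before the start to 25 after it in Eif2b2 (plus strand, chr12:85219441-85219505), Eif2b4 (minus strand, chr5:31193115-31193179) and Eif2ak1 (plus strand, chr5:143817752-143817816). Their capitals mark the ETS word CCGGAAG or its reverse complement. In the same circuit, the windows of Eif2s1, Eif2s3x, Eif2s3y, Eif2b5 and Eif2ak3 had no ETS word. The last pair are 60 bases before the start of Eef2 (plus strand, chr10:81176571-81176630) and Eif4g1 (plus strand, chr16:20672667-20672726), with the E-box CACGTG in capitals.
Eif2s2: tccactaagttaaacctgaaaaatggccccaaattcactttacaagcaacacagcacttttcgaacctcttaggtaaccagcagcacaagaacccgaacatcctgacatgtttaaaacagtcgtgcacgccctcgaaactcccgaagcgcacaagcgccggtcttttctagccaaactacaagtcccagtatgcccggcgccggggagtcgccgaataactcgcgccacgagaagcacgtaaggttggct
Eif2b2: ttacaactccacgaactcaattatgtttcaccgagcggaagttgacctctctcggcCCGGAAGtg
Eif2b4: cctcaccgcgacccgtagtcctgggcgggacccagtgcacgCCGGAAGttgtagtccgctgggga
Eif2ak1: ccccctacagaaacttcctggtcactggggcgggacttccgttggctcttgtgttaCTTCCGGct
Eef2: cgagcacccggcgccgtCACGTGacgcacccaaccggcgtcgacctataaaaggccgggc
Eif4g1: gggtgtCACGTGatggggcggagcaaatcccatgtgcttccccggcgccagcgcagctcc

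Both strands were searched for each word, and no matches of different words overlapped in these genes' windows. CCGGAAG, the core word of ETS factors, occurred in 20 of the 67 windows of these genes (29.9%), against 8.86% of all 32851 windows and 17.4% of the 12705 windows of genes tested. The E-box CACGTG, a word bound by MYC and other factors, occurred in 15 of 67 windows (22.4%), against 7.15% of all windows and 9.78% of those of genes tested. TGATGNAA, the composite element that ATF4 binds, occurred in 2.99% of the windows, those of Eif2s3x and 1 of the Eef2k starts, against 3.97% of all windows and 2.34% of those of genes tested. The cAMP response word TGACGTCA occurred in 1.49% of the windows, against 1.79% of all windows and 2.98% of those of genes tested. The NRF1 palindrome occurred in 1.49%, against 0.971% and 2.03%. CCAAT occurred in 25.4%, below both backgrounds at 37.4% and 37.6%, and TATAAA in 7.46%, against 13.6% of all windows and 7.13% of those of genes tested. For the ATF4, NRF1 and TATAAA words the side on which these genes lay thus turned with the background. Some genes have several starts, so windows of 1 gene can share bases, and a match describes letters only. Counted by gene, CCGGAAG occurred in 17 and CACGTG in 13 of the 52 genes with windows. The backgrounds were not counted by gene, and no difference in frequency was tested.

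Library totals ran from 15529571 to 16639911 counts in PTC and from 15458818 to 15697212 in Control. The 11 T cell markers summed to 5225 and 5379 CPM (counts of a gene normalised to the scaled library total) in PTC libraries. In Control libraries they summed to 4912 and 4758 CPM. None passed the edgeR test, with 5 at an unadjusted p under 0.05, all higher, as for 6.01% of all genes tested. The 11 myeloid markers, none at 0 in all libraries, summed to 1556 and 1374 CPM in PTC and to 1112 and 1121 CPM in Control. Most of these sums came from Lyz2, with 1358 and 1176 CPM in PTC and 865 and 887 CPM in Control. Of the 11, 2 were called higher, Lyz2 and S100a8 at 145% and 161% of Control. Another 3 were called lower, Cd14, Elane and Mpo at 57.5%, 19.5% and 30.7% of Control. Over all genes tested, 0.591% were called higher and 0.763% lower. The 10 B cell markers summed to 562 and 573 CPM in PTC and to 534 and 527 CPM in Control, with 1 called higher (Igkc). Most of these sums came from Ighm, with 474 and 500 CPM in PTC and 481 and 471 CPM in Control. NK cell markers summed to 17.4 and 21.6 CPM in PTC and 21.6 and 26.0 in Control. Erythroid markers summed to 2.86 and 3.74 in PTC and 9.52 and 7.79 in Control with 1 called lower. Stromal markers summed to 101 and 100.2 in PTC and 99.3 and 95.8 in Control. Most of the stromal sums came from Pecam1 alone, with 94.5 and 94.4 CPM in PTC and 92.1 and 87.2 CPM in Control. The part of these cell types in the values below was not tested.

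Levels were dominated by the elongation factors. Together the 68 genes took 5.00% and 4.93% of all counts in the PTC libraries, against 4.98% and 4.89% in the Control libraries. Eef1a1, which carries aminoacyl-tRNA to the ribosome, and Eef2, which moves the ribosome along the mRNA, made up 65.1% and 64.8% of those counts in PTC and 64.9% and 64.3% in Control. Per kilobase of the listed gene length, Eef1a1 ranked first at 7492 ± 178 CPM per kilobase in PTC and 6709 ± 42.9 in Control (SD, n = 2 each). Eef2 followed at 4235 ± 68.5 CPM per kilobase in PTC and 4442 ± 375 in Control. Next in order came Eef1g and Eef1b2, subunits of the exchange complex that recharges eEF1A, at 906 ± 0.937 and 700 ± 14.4 CPM per kilobase in PTC, against 889 ± 35.1 and 653 ± 51.9 in Control. Eif5a, the hypusine-carrying factor that helps ribosomes past difficult peptide bonds, reached 601 ± 5.98 in PTC and 523 ± 26.1 in Control, and Eif3h 537 ± 5.74 and 521 ± 27.2. In Control libraries the spread of Eif5a covered the level of Eif3h, so that pair had no order there. Reads of Eef1a1 and Eef1g are uncertain, since 60.6% and 64.3% of the 50-base words of their longest transcripts also occur in transcripts of other genes. For Eif3h the share was 26.2%.

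**Figure D1:**
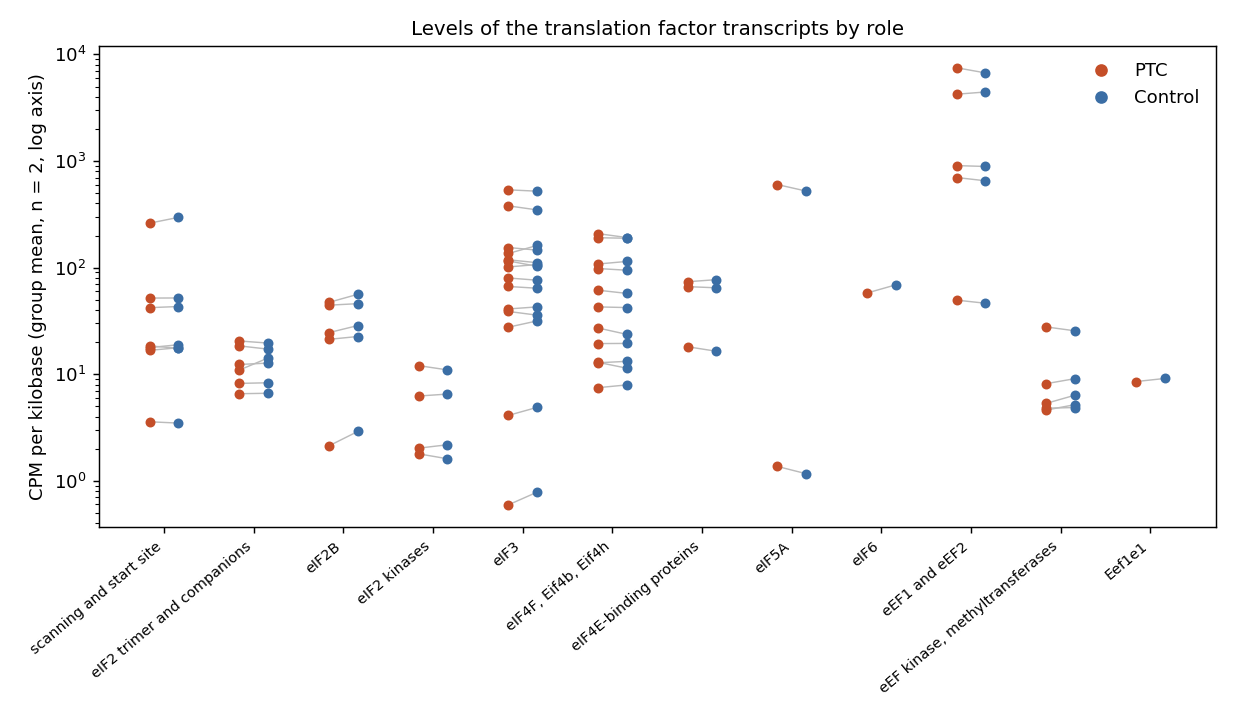
Levels of the 64 tested translation factor genes by role, as group means in CPM per kilobase on a log axis, PTC (orange) left and Control (blue) right of each pair, with lines joining the 2 values of a gene. Levels span from Eif3j2 at 0.595 in PTC and 0.783 in Control to Eef1a1 at 7492 and 6709, and the lines are nearly flat.

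Eif2s2 (chromosome 2, 154871410 to 154892935, minus strand, GRCm38) encodes the beta subunit of eIF2, which contacts both the GTPase-activating factor eIF5 and eIF2B. It stood at 71.9 and 76.0 CPM in the PTC libraries, against 93.6 and 98.2 CPM in the Control libraries. The PTC libraries lay below both Control libraries, as in 22.2% of all genes tested. The gap was wider than the spread within either group, in the same values that gave the call. The difference came to -0.37 ± 0.08 on the log2 scale (standard error; edgeR adjusted p = 0.0219, 95% interval -0.54 to -0.21). Limma-voom (adjusted p = 0.0276) and DESeq2 (0.0160) called it as well, and it was the single one of the 64 genes that either tool called, where they called 1.41% and 1.48% of all genes tested. The call was lost without PTC 1 (log2 fold change -0.34, adjusted p = 0.403) and without PTC 2 (-0.41, adjusted p = 0.0862). It was kept without Control 1 (0.00847) and without Control 2 (0.0343). With a single PTC library, the spread came from the Control group alone. Of the words of its transcript, 3.16% occur in other genes.

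The other subunits of eIF2 did not pass. Eif2s1, the alpha subunit that the kinases phosphorylate, had 95.1 and 87.4 CPM in PTC and 80.8 and 89.4 CPM in Control, with overlapping groups (log2 fold change 0.10, edgeR adjusted p = 0.662). The gamma subunit, which binds GTP and the initiator tRNA, has an X-linked and a Y-linked gene in the mouse. Eif2s3x stood at 78.1 ± 6.98 CPM in PTC and 74.7 ± 9.85 CPM in Control, and Y-linked Eif2s3y at 27.3 ± 1.22 and 27.6 ± 1.57 CPM (SD, n = 2 each). Both had overlapping groups. Eif2s3y had 433 and 431 counts in PTC and 449 and 421 counts in Control, and 0% of its words occur in other genes. Each library thus held RNA of male cells, though the labels give no sex. Of the words of Eif2s3x, 36.2% occur in other genes. Eif2a and Eif2d, which encode factors that can deliver initiator tRNA without the eIF2 trimer, had log2 fold changes of -0.02 and -0.04.

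The subunits of eIF2B all had negative fold changes with PTC, with a median of -0.22, and none passed (edgeR adjusted p from 0.191 to 0.854, with 3 of 5 at an unadjusted p under 0.05, all lower, as for 6.89% of all genes tested). By contrast the median over all genes tested was -0.003. Eif2b3, part of the catalytic core of the complex together with Eif2b5, had 16.1 and 11.7 CPM in PTC and 17.7 and 20.2 CPM in Control. Eif2b2, a regulatory subunit gene, had 87.4 and 90.7 CPM in PTC and 115 and 96.6 CPM in Control. Eif2b4, also a regulatory subunit gene, had 63.7 and 64.0 CPM in PTC and 78.6 and 70.0 CPM in Control. In these 3 genes both PTC libraries lay below both Control libraries, which held for 22.2% of all genes tested. Their log2 fold changes were -0.45, -0.25 and -0.22 (edgeR adjusted p = 0.191, 0.204 and 0.272). Without Control 2, Eif2b2 was called (log2 fold change -0.37, adjusted p = 0.0130), and without Control 1 it stood at -0.11 (adjusted p = 0.573). Eif2b4 stood at -0.12 without Control 1, and Eif2b3 at -0.24 without PTC 2 and -0.69 without PTC 1, none of them called (adjusted p = 0.560, 0.781 and 0.0757). Eif2b1, the alpha subunit, and Eif2b5, the catalytic epsilon subunit, overlapped between groups with log2 fold changes of -0.09 and -0.05. Summed over the 5 genes, the transcripts stood at 335 and 339 CPM in PTC libraries and at 390 and 363 CPM in Control libraries, with no overlap. Other sums separated too, so this is not particular to eIF2B. The scanning and start-site factors summed to 980 and 1044 CPM in PTC and 1071 and 1113 CPM in Control. All 68 genes went the other way, with 50513 and 50315 CPM in PTC and 49989 and 47469 CPM in Control.

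**Figure D2:**
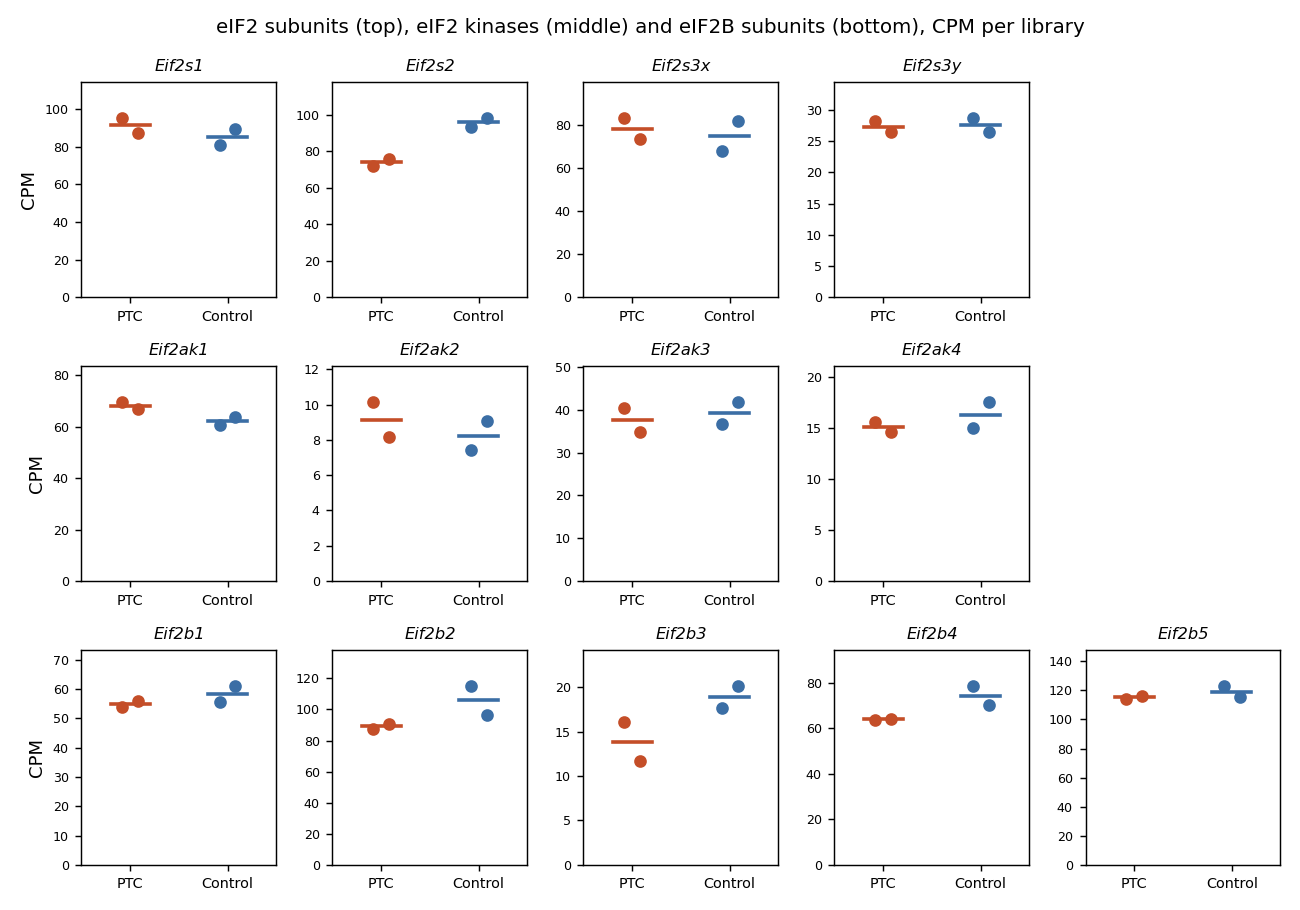
CPM per library (points) and group means (lines) of the eIF2 subunits in the top row, the eIF2 kinases in the middle row and the eIF2B subunits in the bottom row, PTC left and Control right, each axis from 0. The points separate in Eif2s2 (71.9 and 76.0 in PTC, 93.6 and 98.2 in Control), Eif2b2, Eif2b3, Eif2b4 and Eif2ak1, and overlap in the others.

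The 4 eIF2 kinases had 0 called by edgeR and 0 at an unadjusted p under 0.05, beside 1.35% and 12.9% of all genes tested. Their fold changes went both ways, with a median of 0.04. Eif2ak1 (chromosome 5, 143817788 to 143904251), the heme-regulated kinase HRI, stood at 69.6 and 66.8 CPM in PTC and 60.8 and 63.7 CPM in Control. Both PTC libraries lay above both Control libraries, as in 21.3% of all genes tested, and the log2 fold change was 0.13 (edgeR adjusted p = 0.548, 95% interval -0.04 to 0.31). Eif2ak1 shares 11.6% of its exon bases with genes on the opposite strand, and whether counting used strand is not given in the sources used here. Eif2ak2 (chromosome 17, 78852564 to 78882573), the double-stranded RNA sensor PKR and an interferon-responsive gene, had 10.1 and 8.16 CPM in PTC and 7.41 and 9.05 CPM in Control. Its groups overlapped and its log2 fold change of 0.15 had an interval of -0.24 to 0.54. Eif2ak3 (chromosome 6, 70844515 to 70905245), the endoplasmic reticulum stress sensor PERK, had 40.5 and 34.7 CPM in PTC and 36.6 and 41.9 CPM in Control. Eif2ak4 (chromosome 2, 118388618 to 118475234), the amino acid sensor GCN2, had 15.6 and 14.6 CPM in PTC and 14.9 and 17.5 CPM in Control. Both overlapped between groups, at log2 fold changes of -0.06 (interval -0.29 to 0.17) and -0.11 (interval -0.40 to 0.19).

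Those intervals leave room for modest change: the PTC level could lie between 0.970 and 1.24 times Control for Eif2ak1, 0.850 and 1.45 for Eif2ak2, 0.817 and 1.12 for Eif2ak3, and 0.758 and 1.14 for Eif2ak4. The sign of Eif2ak2 turned without PTC 1 (-0.01), that of Eif2ak3 without PTC 2 (0.05) or Control 2 (0.04), and that of Eif2ak4 without Control 2 (0.02). Per kilobase, Eif2ak1 was the highest of the kinases at 12.0 in PTC and 10.98 in Control, and Eif2ak3 followed at 6.24 and 6.51. Eif2ak4 (2.03 and 2.18) and Eif2ak2 (1.79 and 1.61) were the lowest, and all 4 stood below the eIF2 alpha gene Eif2s1 at 18.4 in PTC and 17.2 in Control.

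The scanning and start-site factors had 0 of 7 called (0 by limma-voom, 0 by DESeq2, and 1 at an unadjusted p under 0.05, as did 12.9% of all genes tested). That one was Eif1, which guards start codon choice, at 523 and 573 CPM in PTC and 605 and 637 CPM in Control. Its groups did not overlap, as in 43.6% of all genes tested, and the log2 fold change was -0.18 (edgeR adjusted p = 0.322). Of the words of Eif1, 31.6% occur in other genes. The close copy Eif1b stood at 55.6 and 60.9 CPM in PTC and 59.7 and 57.1 CPM in Control. Eif1a and X-linked Eif1ax, both genes for eIF1A, had fold changes of opposite sign, -0.08 and 0.07 on the log2 scale. Eif5, the GTPase-activating factor of eIF2, had -0.09 and Eif5b, which joins the ribosomal subunits, 0.04. Eif1ad, linked to ribosome assembly in human cells, had -0.04.

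The eIF3 genes, which encode the large scaffold between ribosome and mRNA, had 0 of 14 called (0 by limma-voom, 0 by DESeq2). Eif3j2 had no adjusted p in DESeq2. At an unadjusted edgeR p under 0.05 there were 3 of 14, beside 12.9% of all genes tested. Fold changes of the 14 split into 8 positive and 6 negative with a median of 0.05. Eif3c, a scaffold subunit gene, had 462 and 491 CPM in PTC and 546 and 587 CPM in Control (log2 fold change -0.25, edgeR adjusted p = 0.133). Eif3a, another scaffold subunit gene, had 139 and 147 CPM in PTC and 157 and 170.5 CPM in Control (-0.19, adjusted p = 0.279). Positive fold changes were largest for Eif3i, with 424 and 432 CPM in PTC and 403 and 358 CPM in Control (0.17, adjusted p = 0.373), and Eif3f (0.13). In each of these 4 genes the groups did not overlap, as in 43.6% of all genes tested. Without Control 1, Eif3c (log2 fold change -0.29, adjusted p = 0.0174) and Eif3i (0.27, 0.0323) were called, and Eif3c also without a filter on low counts (0.0476). Without Control 2 they stood at -0.19 (adjusted p = 0.152) and 0.09 (0.568). The remaining subunits lay between -0.08 and 0.12 except the Eif3j pair. Eif3j1 had a log2 fold change of -0.25, and its copy Eif3j2 had 36 and 8 counts in PTC and 15 and 44 counts in Control. Since 91.8% of the words of Eif3j2 and 54.8% of those of Eif3j1 occur in other genes, with the partner the gene that shares most, their counts are uncertain. So are those of Eif3d, where 43.3% of the exon bases overlap a gene on the opposite strand.

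The cap-binding complex eIF4F and its helpers had 0 of 11 called (0 by limma-voom, 0 by DESeq2). At an unadjusted edgeR p under 0.05 there was 1 of 11, beside 12.9% of all genes tested. The helicase gene Eif4a2 stood at 147 and 142 CPM in PTC and 123 and 129 CPM in Control, without overlap (log2 fold change 0.20, edgeR adjusted p = 0.249). It hosts small nucleolar RNA genes, and 13.3% of its exon bases overlap other annotated genes. Its paralog Eif4a1, the main helicase of the complex, had 933 and 873 CPM in PTC and 826 and 833 CPM in Control (0.12). Per kilobase, Eif4a1 made up 63.8% and 61.1% of the summed Eif4a1, Eif4a2 and Eif4a3 level in PTC, against 61.1% and 62.6% in Control. Eif4a3, which sits in the exon junction complex instead, held 28.0% and 30.8% in PTC and 31.5% and 29.5% in Control, and Eif4a2 the rest. These shares are uncertain, since 33.3% of the words of Eif4a1, 24.4% of Eif4a3 and 12.7% of Eif4a2 occur in other genes.

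Cap-binding genes were close between groups. Eif4e, the cap-binding protein itself, had 78.2 and 75.6 CPM in PTC and 74.7 and 84.0 CPM in Control. Eif4e2, a cap-binding repressor, had 144 and 147 CPM in PTC and 152 and 140 CPM in Control, and Eif4e3 had 32.1 and 32.9 CPM in PTC and 30.1 and 27.2 CPM in Control. Of the 3, Eif4e3 alone had groups without overlap, as in 43.6% of all genes tested (log2 fold change 0.18, edgeR adjusted p = 0.511). The germline form Eif4e1b had 0 counts in all 4 libraries, where a count of 0 allows up to 0.195 CPM in the shallower PTC library and 0.192 CPM in Control 1, for counting error only. Among the scaffold genes, Eif4g1 made up 54.7% and 55.3% of the summed level per kilobase in PTC and 54.8% and 52.0% in Control, with log2 fold changes of 0.10 for Eif4g1, 0.02 for Eif4g2, a scaffold for cap-independent initiation, and -0.09 for Eif4g3.

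The eIF4E-binding proteins hold eIF4E in check until the kinase mTORC1 phosphorylates them. Of 4 genes 3 were tested, with 0 called (0 by limma-voom, 0 by DESeq2). At an unadjusted edgeR p under 0.05 there were 0, beside 12.9% of all genes tested. Eif4ebp1 stood at 157 and 167 CPM in PTC and 181 and 157 CPM in Control, with overlapping groups (log2 fold change -0.06, edgeR adjusted p = 0.803, 95% interval -0.24 to 0.11). Eif4ebp2 had 384 and 383 CPM in PTC and 373 and 375 CPM in Control (0.04). Eif4ebp3 had 1 and 2 counts in PTC and 0 and 5 in Control, too few to test. Eif4enif1, which carries eIF4E into the nucleus, had a log2 fold change of 0.14.

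**Figure D3:**
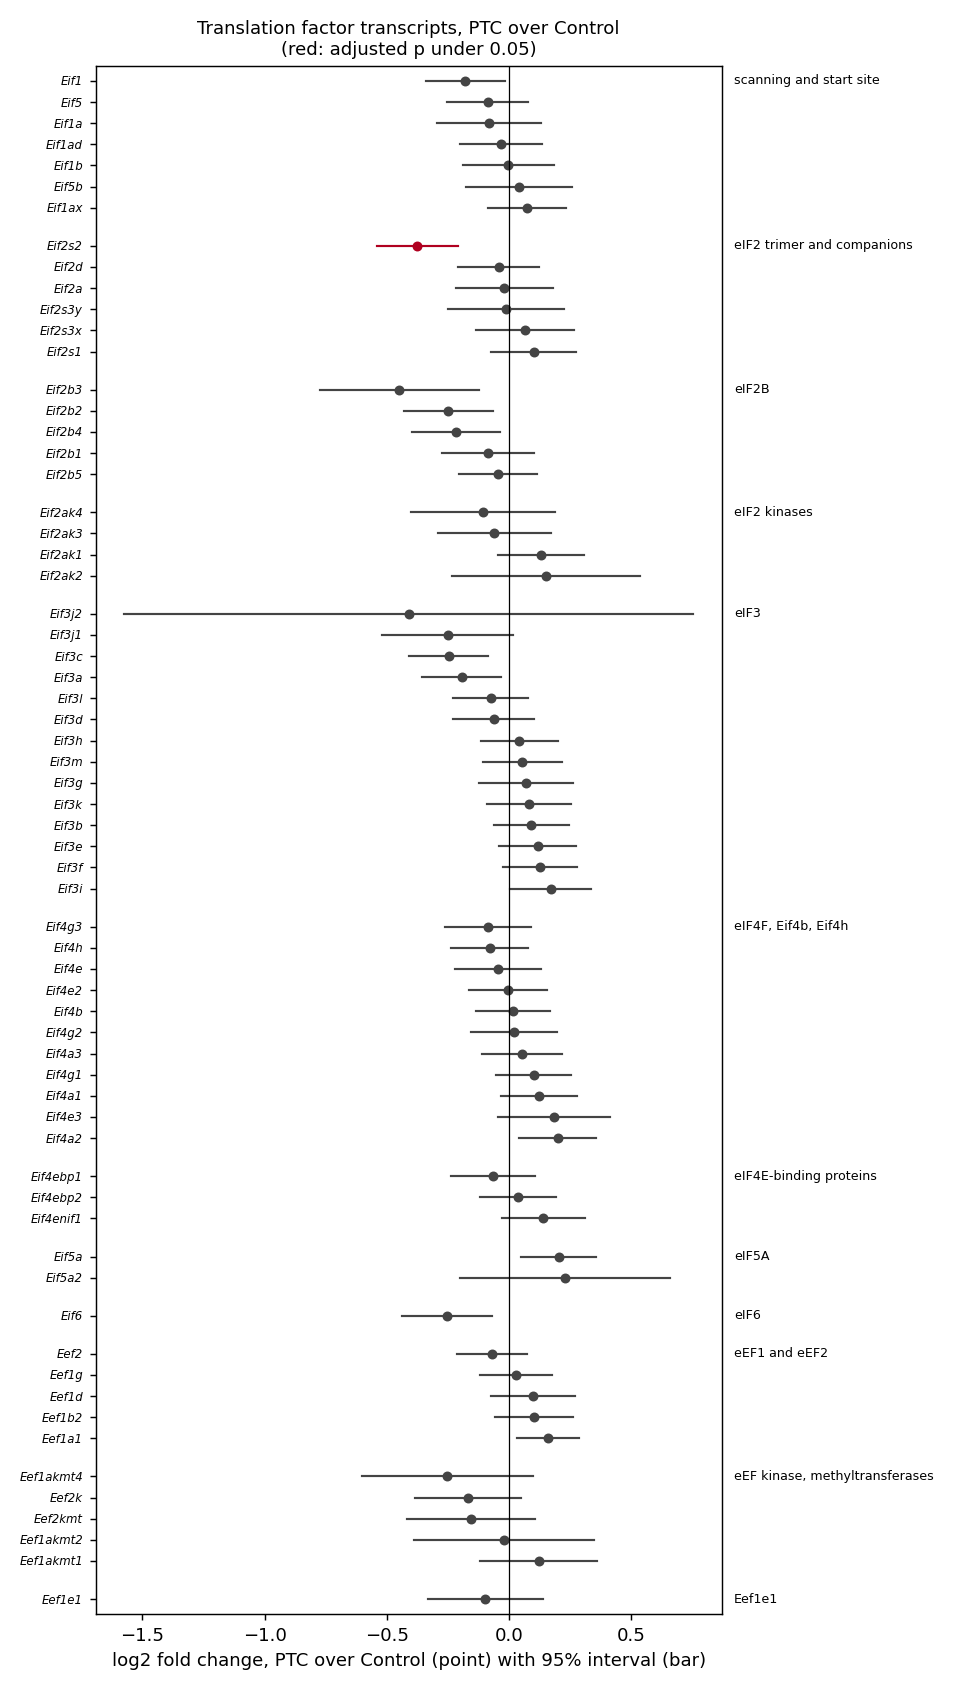
Log2 fold change of PTC over Control (points) with 95% intervals (bars) for the 64 tested translation factor genes, grouped by role. Eif2s2 at -0.37, in red, is the single gene past the threshold; the eIF2B genes all lie left of 0 and the widest interval belongs to Eif3j2 (-1.57 to 0.75).

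The elongation factors had 0 of 5 called (0 by limma-voom, 0 by DESeq2). At an unadjusted edgeR p under 0.05 there was 1 of 5, beside 12.9% of all genes tested. Eef1a1 stood at 18992 and 18364 CPM in PTC and 16801 and 16650 CPM in Control, without overlap. Its log2 fold change was 0.16 with a 95% interval of 0.03 to 0.29 (edgeR adjusted p = 0.256). Eef2 went the other way, with 13915 and 14237 CPM in PTC and 15646 and 13883 CPM in Control, and its groups overlapped (-0.07, adjusted p = 0.729). Without Control 1, Eef1a1 was called (log2 fold change 0.17, adjusted p = 0.00471), and without Control 2 both Eef1a1 (0.16, 0.00913) and Eef2 (-0.15, 0.0128) were. Without PTC 1 or PTC 2, Eef1a1 was not called (0.14 and 0.18, adjusted p = 0.986 and 0.696). Eef1a1 was also called without a filter on low counts (0.0451), and the sign of Eef2 turned without Control 1 (0.03). The muscle and neuron form Eef1a2 had 0 counts in all 4 libraries. Eef1b2, Eef1d and Eef1g, which form the exchange complex, had log2 fold changes of 0.10, 0.10 and 0.03.

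Eif5a had 1419 and 1439 CPM in PTC and 1286 and 1198 CPM in Control, with both PTC libraries higher (log2 fold change 0.20, edgeR adjusted p = 0.220), and was called without Control 1 (0.26, 0.0131) but not without Control 2 (0.16, 0.167). Its paralog Eif5a2 stood at 5.92 and 7.79 CPM in PTC and 6.07 and 5.66 CPM in Control, with overlapping groups. Eif6, which keeps free large ribosomal subunits from joining small ones, had 147 and 165 CPM in PTC and 202 and 170.3 CPM in Control. Both PTC libraries were lower, Control 1 was the highest of the 4, and the log2 fold change was -0.25 (edgeR adjusted p = 0.203). Without Control 2 it was called (-0.37, adjusted p = 0.00970), and without Control 1 it stood at -0.12 (adjusted p = 0.513). Among the enzymes that modify elongation factors, 5 of 6 were tested with 0 called (0 by limma-voom, 0 by DESeq2). At an unadjusted edgeR p under 0.05 there were 0, beside 12.9% of all genes tested. Eef2k, the kinase that inhibits eEF2, had 35.9 and 32.5 CPM in PTC and 38.3 and 38.5 CPM in Control (-0.17, adjusted p = 0.530). The lysine methyltransferase genes of eEF1A and eEF2 lay between -0.25 for Eef1akmt4 and 0.12 for Eef1akmt1, and Eef1akmt3 had at most 7 counts in a library. Counts of Eef1akmt4 and Eef2kmt are uncertain, since 31.7% and 23% of their exon bases overlap other annotated genes. Eef1e1, which despite its name belongs to the tRNA synthetase complex, had -0.10.

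As a set, the 64 tested genes had 30 positive and 34 negative fold changes with a median of -0.0095, beside a median of -0.003 over all 13884 genes. Their median absolute log2 fold change was 0.09, beside 0.13 over all genes. Among genes with a mean of at least 10 CPM, the values were 0.0881 for 59 of these genes and 0.0967 for all 8832. Groups did not overlap in 17 genes with PTC higher and 13 with PTC lower, against 21.3% and 22.2% of all genes tested. At an unadjusted p under 0.05 there were 12 of 64, 4 higher and 8 lower, beside 6.01% higher and 6.89% lower over all genes. The 95% interval of 60 of the 64 genes lay within a 1.5-fold change either way. In simulated counts for this comparison, with changed genes drawn at random from all genes tested, the test recovered 26% of 1.3-fold and 54% of 1.5-fold changes. These rates cover genes of all levels and were not measured for the factors, most of which had at least 10 CPM. Some small changes in other factors could still be missed.

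Of 46 further genes that serve translation beside these factors, 45 were tested and 1 passed, beside 1.35% of all genes tested. Ppp1r15a, the stress-inducible subunit (GADD34) of the phosphatase that reverses eIF2 phosphorylation, had 34.5 and 36.3 CPM in PTC and 53.1 and 45.6 CPM in Control. Both PTC libraries lay below both Control libraries, as in 22.2% of all genes tested, and the log2 fold change was -0.48 (edgeR adjusted p = 0.0241). The call was lost without PTC 1 (-0.44, adjusted p = 0.206) and without Control 1 (-0.36, adjusted p = 0.102). Its constitutive counterpart Ppp1r15b stood at 168.0 and 167.9 CPM in PTC and 157 and 178 CPM in Control. The list had 30 negative and 15 positive fold changes with a median of -0.07, where 50.7% of all genes tested were negative and their median was -0.003. The next largest negative fold changes were those of Dohh, an enzyme of eIF5A hypusination, at -0.42 and Pabpc4, a poly(A)-binding protein gene, at -0.27 (edgeR adjusted p = 0.171 and 0.110). The largest positive ones were those of Impact, an inhibitor of GCN2 activation, at 0.40 and Dnajc24, a cofactor of eEF2 diphthamide synthesis, at 0.27 (edgeR adjusted p = 0.389 and 0.531). The 9 mitochondrial translation factors lay between -0.16 and 0.04 and the 4 genes of mTORC1 and its S6 kinases between -0.18 and 0.17. Both groups had 0 called by edgeR and 0 at an unadjusted p under 0.05, beside 1.35% and 12.9% of all genes tested.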

How the data were processed

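RNA-seq reads of 2 PTC and 2 Control libraries were processed with CASAVA 1.8, HISAT2 2.0.5 and featureCounts 1.5.0-p3, per the submitters' processing notes. Neither genome build nor strandedness of counting is given in the sources used here. The authors deposited raw counts per gene, a gene length, and their own log2 fold changes, and the deposited log2 values were not used. Another 2 count columns match no sample and were not used. Coordinates of 65 of the 68 genes were the same as in GENCODE M21 (GRCm38).

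Counts were tested with edgeR 4.0.16 (filterByExpr, TMM scaling, quasi-likelihood, Benjamini-Hochberg, threshold 0.05) in R 4.3.3, with limma 3.58.1 and DESeq2 1.42.0 as alternatives. CPM uses the TMM-scaled totals. Standard errors are the fold change over the root of F. The labels' replicate numbers are not stated to pair samples. Library pairs differed by more than counting noise (chi-square per degree of freedom 4.41 within PTC, 6.98 within Control, at least 7.54 between groups), so all were kept as separate. A count of 0 was read as up to 3 counts. The edgeR test was tested on simulated data. Named by rule were the factors called, the eIF2 kinases, the 8 largest changes each way at a mean of at least 10 CPM, the 6 highest levels per length and the paralog sets; the rest are given by role. Members and lists, among them markers of T, B, myeloid, NK, erythroid and stromal cells, were chosen with earlier results of these data known.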

Additional observations from a re-analysis of the deposited data

How the results depend on the processing

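Without a filter on low counts 432 genes and 3 of these factors were called, 1 higher and 2 lower. Leaving out 1 library at a time, calls ran from 76 (without PTC 1) to 422 (without Control 1) over all genes, against 188 with all libraries, with 160 without PTC 2 and 337 without Control 2. Among the factors they ran from 0 to 5, with 0 to 3 higher and 0 to 4 lower. The median log2 fold change of the factors ran from -0.0141 to 0.0308 and that of the kinases from -0.0818 to 0.1065. Same-numbered libraries did not deviate together (r = -0.0469 over 13884 genes). With a replicate block, 237 genes and 1 factor, Eif2s2, were called (log2 fold change -0.38, edgeR adjusted p = 0.0250). With 2 libraries a group, the test recovered 26% of 1.3-fold and 54% of 1.5-fold changes in simulated counts over genes of all levels. These rates were not measured for the factors, among which Eif2s2 was called at 77.1% of Control.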
